A study of Mus musculus with 4 samples.

Results

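The genes described here are those of the tripartite motif (TRIM) family, measured in lineage-negative bone marrow of mice lacking Mtg16 and of wild-type mice. Members were all genes with a probe of 1 gene symbol made of Trim, a number and at most 1 letter, without Trim2 and Trim25, and each gene was represented by its probe with the highest mean signal. This gave 43 genes of the 13840 genes with such a probe. Mtg16 (symbol Cbfa2t3) encodes a transcriptional corepressor of the ETO family in blood progenitors. The 2 Mtg16 null arrays, here called null arrays, came from female mice aged 8 to 12 weeks of a line at backcross generation N4 into C57BL/6, and the 2 wild-type arrays from female C57BL/6 mice of the same age range. For each array, femur and tibia marrow of 4 mice was pooled and cells with markers of mature lineages were removed on magnetic columns. Each of 2 array lots held 1 array of each genotype, and no label tells whether both arrays of a genotype were made from the same pool of mice. A p-value therefore covers only the scatter among these arrays, which may be no more than technical. The labels name neither the strain from which the null line was backcrossed nor any deletion by cell type. Only the null arrays came from a backcrossed line. Loss of Mtg16 and alleles remaining from the other strain therefore cannot be told apart in any difference given here.

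TRIM proteins carry a RING finger, B-box zinc fingers and a coiled coil, followed by a C-terminal domain that sets what each protein binds. The RING finger recruits a ubiquitin-conjugating enzyme, so most members act as E3 ubiquitin ligases, while Trim14, Trim16, Trim29, Trim44 and Trim66 lack a RING. The family is best known for antiviral defence and for control of innate immune signalling, and some members act as nuclear corepressors or in red cell maturation.

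Values are signal units on a linear scale, quantile normalized over the 4 arrays by the authors, between 28.2 and 3093946 units with a median of 470.4 on each array. A gene was kept for testing when its probe lay in the brighter 50% of all 33012 probes, and is called dim otherwise. The brightness of one probe cannot be set against that of another as an amount of transcript. Differences are log2 signal of null minus wild type, tested with limma over all 8444 kept genes, with Benjamini-Hochberg adjusted p-values and a threshold of 0.05. Background was gauged from 3 Y-linked genes, absent from female mice, whose signals spanned 94.5 to 310.2 units. Kit, the progenitor receptor gene, read 34022 and 41866 units in the null arrays, against 39213 and 47408 units in wild type. Marker lists of several cell types differed between the genotypes: 11 of 11 kept late neutrophil genes were lower in the null arrays (median log2 difference -3.64), 16 of 16 erythroid genes were lower (-1.21), and 7 of 7 early granulocyte genes were higher (1.89). Also higher by sign were 7 of 7 megakaryocyte genes (0.78), 5 of 5 monocyte and macrophage genes (0.99), 5 of 5 B lineage genes (1.20) and 4 of 6 stem and progenitor genes (1.00). In RNA of a mixed population, fewer cells of a type and less RNA per cell cannot be told apart, and the part of cell composition in the TRIM values was not tested beyond the marker values given.

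Of the 43 TRIM genes, 26 were kept and 17 were dim. Most kept genes lay close to 0, with a median log2 difference of 0.01 against -0.02 over all kept genes and a median size of 0.17 against 0.28. The differences of 20 of the 26 were under 0.5 in size. None of the 26 passed limma at an adjusted p under 0.05 (smallest 0.0975), where 0.118% of all kept genes did. At an unadjusted p under 0.05 there were 5 (19.2% of the 26), of which Trim45, Trim46 and Trim30d were higher and Trim10 and Trim17 lower in the null arrays, against 16.5% of all kept genes. At least 1.5-fold differences in the same direction in both lots were found for Trim45 and Trim46, higher, and Trim10 and Trim17, lower. That is 15.4% of the kept members, where 14.3% of all kept genes met the rule, 8.54% higher and 5.76% lower. The null and wild-type values did not overlap for 17 of the 26, 10 higher and 7 lower, or 65.4%, against 45.7% of all kept genes, 22.6% higher and 23.2% lower. These shares describe the list, and no test of the list was made.

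**Figure D1:**
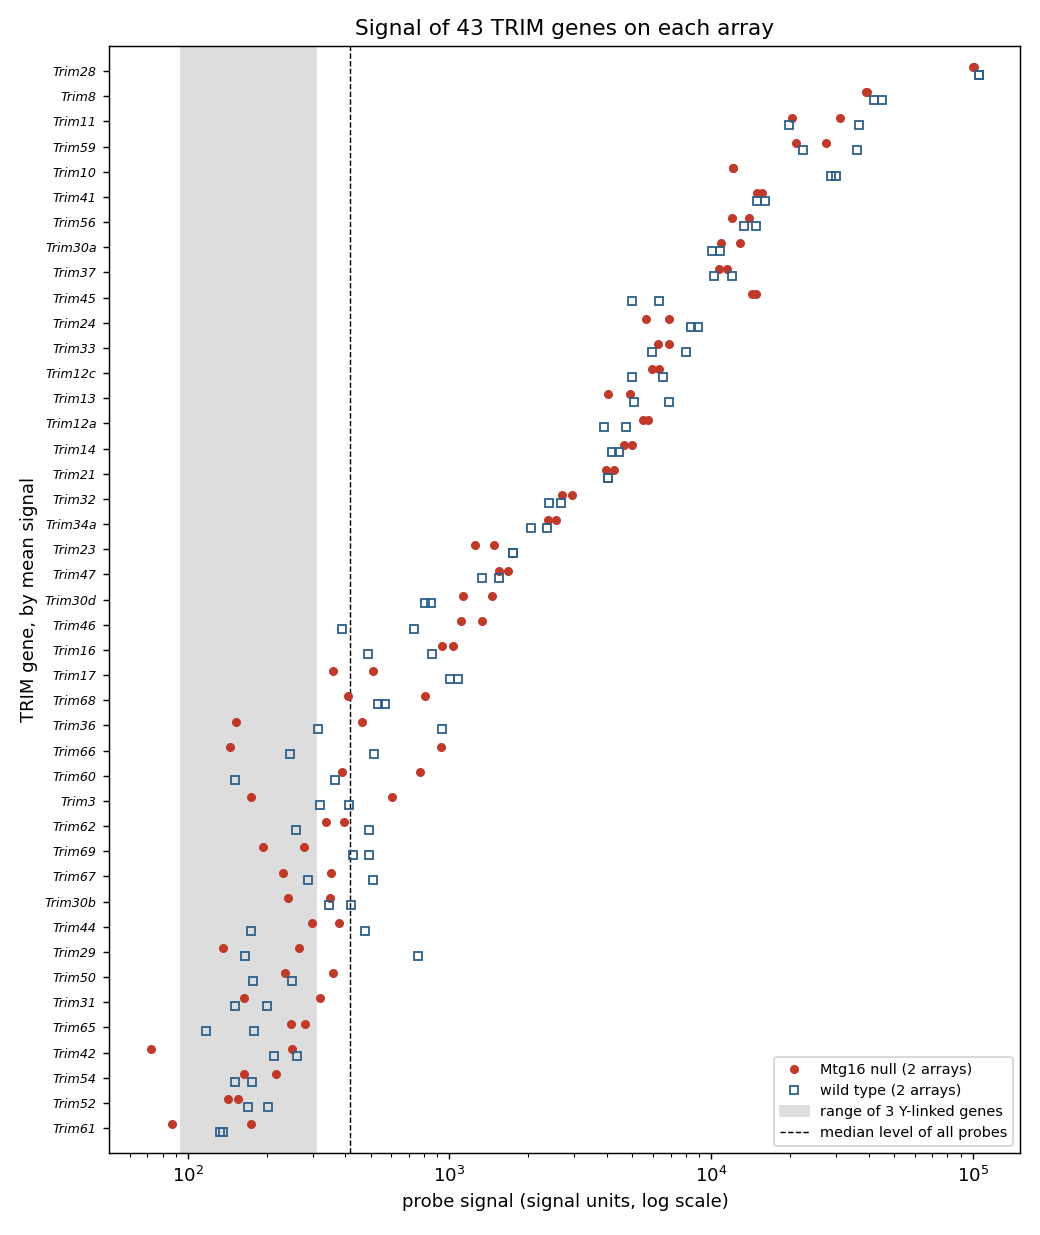
Signal of the 43 TRIM genes on each array, on a log axis, with genes ordered by mean signal. Filled red circles are the 2 null arrays and open blue squares the 2 wild-type arrays. The grey band is the span of the Y-linked probes, 94.5 to 310.2 units, and the dashed line is the median level of all probes. Trim10 and Trim45 are the bright genes whose genotypes stand clearly apart.

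Trim10, also known as Herf1, is an SPRY-domain member known in mice for its part in terminal red cell differentiation. It read 12112 and 12143 units in the null arrays (lots 1 and 2), against 29945 and 28802 units in wild type. Both null arrays were far below both wild-type arrays, and the 2 arrays of a genotype were nearly equal. The means were 12128 ± 21.6 units in the null arrays and 29373 ± 809 units in wild type (SD, n = 2 each), 2.42-fold lower. Lot 1 gave a log2 difference of -1.31 and lot 2 one of -1.25, with -1.28 in the fit (SE 0.17, limma adjusted p = 0.0975, 95% interval before adjustment -1.73 to -0.82). It missed the threshold over the 8444 genes, but passed when the test was limited to the brightest 25% of probes (adjusted p = 0.0187, with 5.86% of genes called and 20.6% at an unadjusted p under 0.05) and with a variance trend (adjusted p = 0.0189, with 3.49% of genes called and 17.2% at an unadjusted p under 0.05).

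The erythroid markers moved in the same direction as Trim10. All 16 kept markers of 19 listed were lower in the null arrays. Of these, 13 had an unadjusted p under 0.05, against 6.83% of all kept genes lower at that level. After adjustment over all genes 0 of the 16 passed limma, where 0.118% of all kept genes did. Summed over the 17 with a probe, the list read 1412700 to 1592650 units in null arrays and 2293960 to 3173350 in wild type. No sum was at 0. Most of each sum came from the bright probes of Car1 (log2 difference -1.06), Car2 (-0.69) and Hba-a1 (-0.56), so it says little of the other markers. Ermap, a red cell membrane gene, had a log2 difference of -1.73 and Gata1, the erythroid transcription factor gene, one of -0.75. Klf1, another erythroid factor, had a difference of -0.34. Slc4a1, the band 3 anion exchanger gene of red cells, was dim, at 358.7 and 197.1 units in the null arrays against 479.1 and 355.8 units in wild type. Whether the Trim10 difference goes beyond that of erythroid cells was not tested.

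The RefSeq promoter of Trim10, from 250 bases before to 50 bases after the start of transcription, is shown because the gene had the smallest p-value of the family and its promoter holds a GATA motif. It lies at chr17:36869324-36869623 on the plus strand of GRCm38.p6. Capitals mark a GATA motif (AGATAA, here as its reverse complement, with its bases 163 to 158 before the start) and an E box (CAGGTG).
Trim10: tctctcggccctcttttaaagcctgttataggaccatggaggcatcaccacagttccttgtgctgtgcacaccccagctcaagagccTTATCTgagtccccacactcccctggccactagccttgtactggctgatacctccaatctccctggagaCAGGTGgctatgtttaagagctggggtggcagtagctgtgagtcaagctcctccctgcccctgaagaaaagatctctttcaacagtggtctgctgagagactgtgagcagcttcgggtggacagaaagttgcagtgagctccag
Both strands were searched, and no position is shared between the motifs. GATA factors of red cell precursors bind the first kind of motif, and E proteins, with which ETO family corepressors associate, bind E boxes. AGATAA was found in the promoter of 1 of 32 TRIM members looked up, Trim10, and for 12.7% of all 27025 genes in the table, a gene counting when any of its promoter entries held the motif. CAGGTG was found for 11 of the 32 members, Trim28, Trim46 and Trim59 among them, and for 22.6% of all genes. A match is a description of letters, not a site of binding.

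Trim45 differed in the opposite direction and had the highest log2 difference of the 26 kept members, without passing the test. Its protein carries a filamin-type immunoglobulin domain and, in human cells, has been described as a repressor of MAP kinase dependent transcription. Its signal was 14896 and 14398 units in the null arrays, against 4966 and 6342 units in wild type. Both null arrays lay above both wild-type arrays, with the wider spread in wild type. The means were 14647 ± 352 units in the null arrays and 5654 ± 973 units in wild type (SD, n = 2 each), 2.61-fold higher. Its log2 difference reached 1.58 in lot 1, 1.18 in lot 2 and 1.38 in the fit (SE 0.21, limma adjusted p = 0.101, 95% interval before adjustment 0.82 to 1.95). Like Trim10, it passed with the brightest 25% of probes (adjusted p = 0.0224) and with a variance trend (adjusted p = 0.0270). Its nearest measured neighbours in the RefSeq gene order, Vtcn1 and Man1a2, are given for their position alone. Man1a2, a mannosidase gene, had a log2 difference of -0.07, with 0.29 and -0.43 in the 2 lots, and Vtcn1 was dim.

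**Figure D2:**
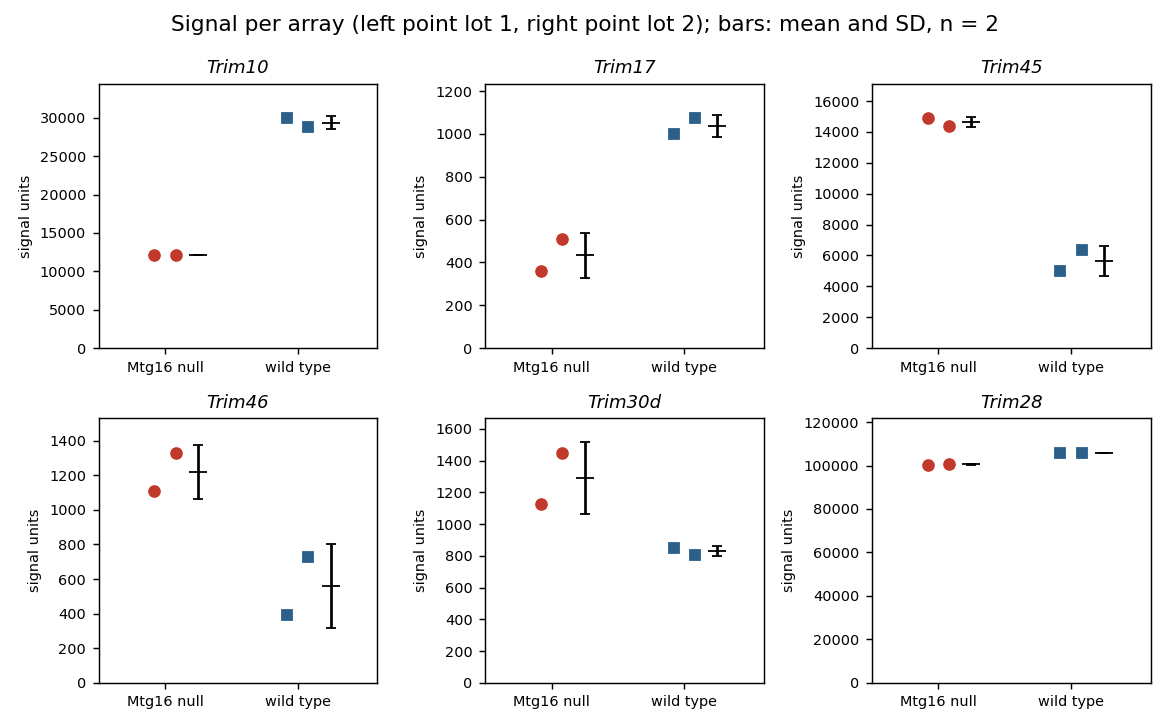
Signal per array of the 5 TRIM genes with an unadjusted p under 0.05 and of Trim28, on linear axes from 0. Red circles are null arrays and blue squares wild-type arrays, the left point of each pair from lot 1 and the right from lot 2, and bars give mean and SD (n = 2). Trim10 and Trim17 are lower, Trim45, Trim46 and Trim30d higher in both null arrays, and Trim28 is nearly level.

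Trim17, an SPRY-domain ligase known from neurons and testis, read 359.7 and 508.7 units in the null arrays, against 1001 and 1074 units in wild type. Its null arrays lay well below wild type but only a little above the 310.2 units of the brightest Y-linked value, so background limits how exactly the size is known. Within lots the log2 difference came to -1.48 (lot 1) and -1.08 (lot 2), and in the fit to -1.28 (SE 0.24, limma adjusted p = 0.125). The adjacent gene H2bu2, a histone gene, also read lower, at 1327 and 1366 units in the null arrays against 1992 and 4404 units in wild type (log2 difference -1.14, limma adjusted p = 0.322). The next gene on the other side, the histone gene H2aw, had a log2 difference of -0.11.

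Trim46 belongs to the members with a COS box, a motif that binds microtubules, and is known for bundling microtubules at the start of the axon. The probe read 1108 and 1329 units in the null arrays, against 389.5 and 729.2 units in wild type. The groups did not overlap, but wild-type array 1 lay near background and sets much of the size. The 2 lots gave log2 differences of 1.51 and 0.87, and the fit one of 1.19 (SE 0.37, limma adjusted p = 0.254), against 0.73 without wild-type array 1. Its unadjusted p was above 0.05 with a variance trend. With 1 array left out, its log2 difference ranged from 0.73 to 1.64. Of the other 4 COS-box members with a probe, Trim36, Trim42, Trim54 and Trim67, all were dim. Trim54 was the measured member of the striated muscle group, at 164 and 217.3 units in the null arrays against 176 and 151.8 units in wild type, all inside the Y-linked span.

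**Figure D3:**
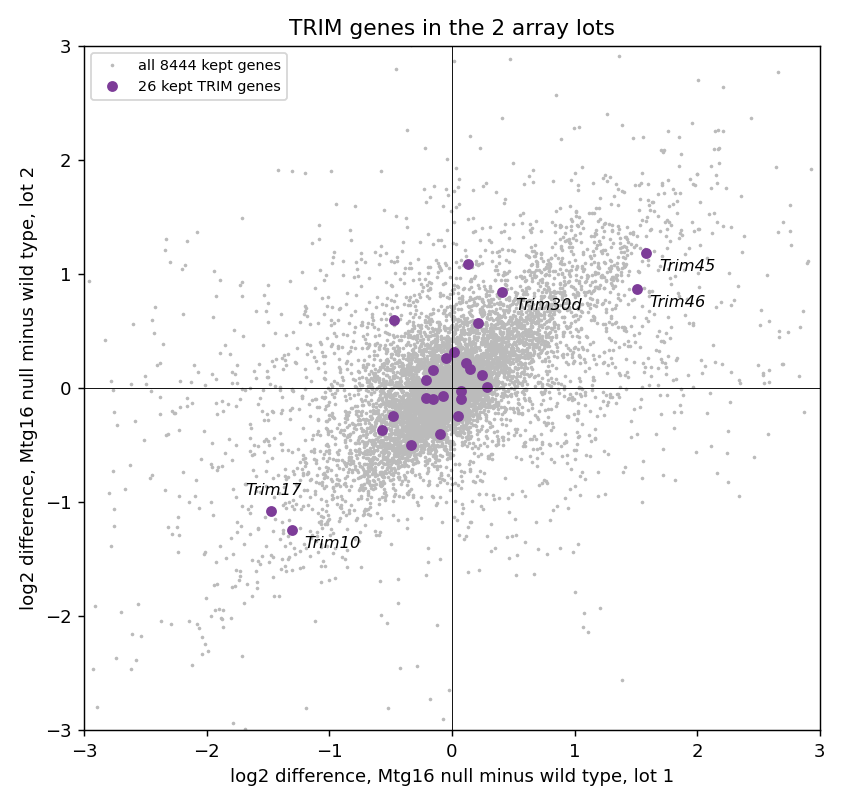
Log2 difference of null minus wild type in lot 1 (horizontal axis) and in lot 2 (vertical axis) for all 8444 kept genes (grey) and the 26 kept TRIM genes (purple), with 52 genes beyond 3 on either axis not shown. Trim10 and Trim17 lie at lower left and Trim45, Trim46 and Trim30d at upper right, while most TRIM genes cluster around 0.

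No interferon-inducible TRIM gene passed limma after adjustment, where 0.118% of all kept genes did. The list of such members held 9 genes with a probe, of which 8 were kept: Trim12a, Trim12c, Trim14, Trim21, Trim30a, Trim30d, Trim34a and Trim56. By sign alone 7 were higher and 1 lower in the null arrays, with a median log2 difference of 0.16, where 4048 of the 8444 kept genes were higher. The sign differed between lots for Trim12c (-0.05 and 0.26) and Trim21 (0.08 and -0.03). Of the 8, 1 (Trim30d, 12.5%) had an unadjusted p under 0.05, against 9.65% of all kept genes higher at that level. Among 12 kept interferon response markers, 10 were lower and 2 higher, with a median of -0.82, and 7 were lower and 1 higher at an unadjusted p under 0.05, against 6.83% and 9.65% of all kept genes. Summed over these markers the signal was 125782 to 148834 units in the null arrays, against 134487 to 143813 units in wild type, and none was at 0. Most of that sum came from the bright probes of the 2 higher markers, Ifi47 (log2 difference 0.52) and Bst2 (0.04), so it does not reflect the 10 lower ones. Oasl1, an interferon-induced gene, was the 1 marker that passed limma over all genes, and the difference between the 2 lists was not tested.

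Trim30d, a paralogue of Trim30a in mice, read 1129 and 1449 units in the null arrays, against 850.1 and 805.9 units in wild type. Both null arrays were above both wild-type arrays. By lot its log2 difference was 0.41 and 0.85, and by the fit 0.63 (SE 0.21, limma adjusted p = 0.275). Its unadjusted p was no longer under 0.05 with no filter or with a variance trend. With 1 array left out, its log2 difference ranged from 0.45 to 0.81. Trim30a, which restrains Toll-like receptor signalling in mouse macrophages, read 12873 and 10937 units in the null arrays, against 10866 and 10126 units in wild type. Its log2 difference was 0.18 (SE 0.19, limma adjusted p = 0.737), without overlap of the groups, and that of Trim30b was measured on a dim probe. Trim12a, a relative of the retrovirus restriction factor TRIM5, read 5491 and 5756 units in the null arrays, against 4730 and 3883 units in wild type (log2 difference 0.39, SE 0.19, limma adjusted p = 0.437). The higher level was seen in both lots, at 0.22 and 0.57. Trim12c had 2 kept probes that differed in their result. The brighter, at 6309 and 5952 units in the null arrays against 6527 and 4970 units in wild type, overlapped between genotypes (log2 difference 0.11). The other, at 3767 and 3519 units in the null arrays against 2642 and 2390 units in wild type, did not overlap and had differences of 0.51 and 0.56 in the 2 lots. The Trim12 and Trim30 genes are paralogues within each group, and whether a probe reads more than 1 of them was not tested.

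Trim21, the cytosolic receptor that binds antibody on incoming virus, was level between the genotypes, at 4268 and 3951 units in the null arrays against 4047 and 4031 units in wild type. Its log2 difference was 0.02, with a 95% interval before adjustment of -0.44 to 0.49. Trim34a was measured at 2384 and 2552 units in the null arrays, against 2351 and 2046 units in wild type (log2 difference 0.17), and a second, dim probe gave 0.11. Trim14, which lacks a RING and acts as an adaptor at the mitochondrial antiviral protein MAVS, had 4640 and 4989 units in the null arrays, against 4179 and 4448 units in wild type. The groups did not overlap, but the difference was small, at 0.15 and 0.17 in the 2 lots. Trim56, a ligase of the cytosolic DNA sensing pathway, overlapped, at 12015 and 13927 units in the null arrays against 13373 and 14865 units in wild type (log2 difference -0.12).

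Promoters of 6 of the 8 interferon-inducible members looked up held the core of the interferon-stimulated response element, which is GAAA, any 2 bases and GAAA again, searched on both strands. It was in the promoters of 0 of the 24 other TRIM members looked up and in those of 3.99% of all genes in the table. The matches are shown with 10 bases on each side because they are what 6 interferon-inducible members share in sequence, 5 of them in a single run of TRIM genes on chromosome 7. Capitals mark the match, from RefSeq and GRCm38.p6.
Trim30d (chr7:104507871-104507900, minus strand): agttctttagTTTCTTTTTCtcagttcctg
Trim30a (chr7:104465210-104465239, minus strand): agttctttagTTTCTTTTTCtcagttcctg
Trim12c (chr7:104353359-104353388, minus strand): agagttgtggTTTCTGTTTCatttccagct
Trim12a (chr7:104315466-104315495, minus strand): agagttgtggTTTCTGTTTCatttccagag
Trim34a (chr7:104244457-104244486, plus strand): tggtttggagTTTCAGTTTCttttctctgc
Trim21 (chr7:102565450-102565479, minus strand): cctctgagagGAAACTGAAAgtgaaatttg
The windows of Trim30d and Trim30a are identical. Trim30a has a second promoter entry elsewhere on chromosome 7 that holds the same matched letters, 3 to 12 bases after its start. Trim21 has a second match that overlaps the first. The match begins 41 bases before the start of transcription in Trim30d, 36 before it in Trim30a and 29 before it in Trim12c, and 11 bases after it in Trim12a and Trim34a. Of the 43 members, 11 lie on chromosome 7 by the RefSeq table, and Trim34a, Trim12a, Trim12c, Trim30b, Trim30a and Trim30d follow one another there with few coding genes between them.

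**Figure D4:**
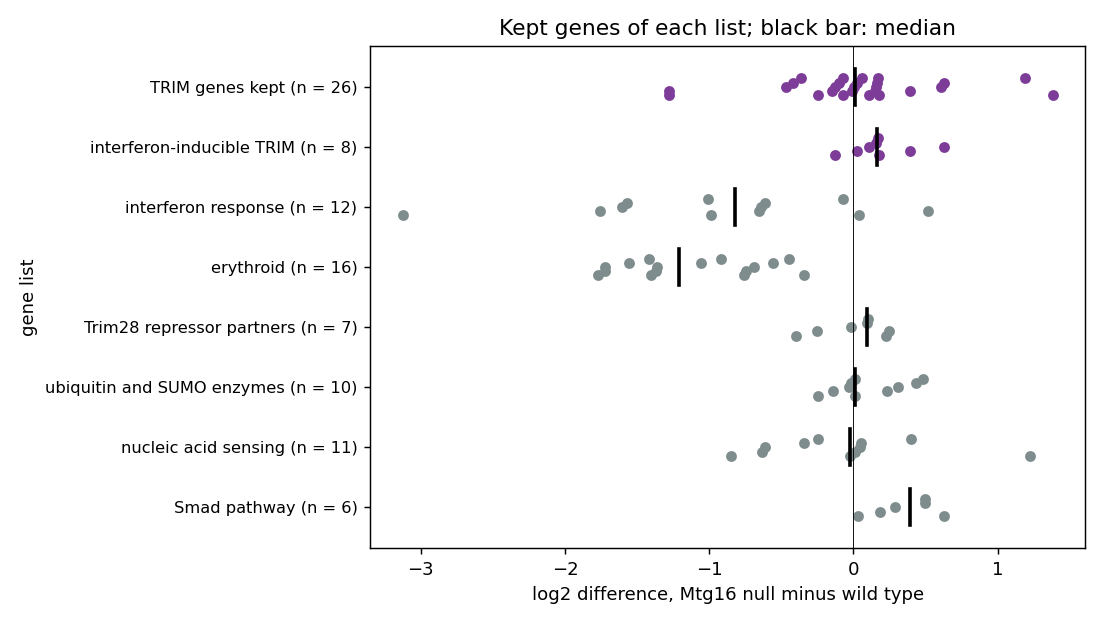
Log2 difference of null minus wild type for the kept genes of 8 lists, 1 point a gene, with a black bar at the median. The interferon-inducible TRIM genes (median 0.16) sit at or above 0 but for Trim56, whereas interferon response markers (-0.82) and erythroid markers (-1.21) lie mostly or all below 0.

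The members with a PHD finger and bromodomain, which act as nuclear cofactors, included no gene with an unadjusted p under 0.05 among the 3 kept, though Trim24 did with the lot as a block. Trim28, the KAP1 protein that silences transposons together with KRAB zinc finger proteins, read 100171 and 100799 units in the null arrays, against 105673 and 105822 units in wild type. Its groups did not overlap, but the log2 difference was only -0.07 (SE 0.16, limma adjusted p = 0.892), with a 95% interval before adjustment of -0.53 to 0.38. Trim24, a partner of the retinoic acid receptor, read 5656 and 6927 units in the null arrays, against 8394 and 8947 units in wild type (log2 difference -0.47, SE 0.20, limma adjusted p = 0.364). It was lower in both lots, by -0.57 and -0.37. Trim33, which binds Smad proteins and has a known role in blood formation, overlapped, at 6886 and 6277 units in the null arrays against 7989 and 5960 units in wild type (log2 difference -0.07, 95% interval before adjustment -0.69 to 0.55). Trim66 was dim.

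Among the remaining bright members, Trim8, a regulator of cytokine signalling through Socs1, read 39013 and 39456 units in the null arrays, against 45202 and 41921 units in wild type. The log2 difference was -0.15 (SE 0.17, limma adjusted p = 0.756). Trim11 read 20459 and 31005 units in the null arrays, against 19779 and 36691 units in wild type, so it was higher in lot 2 in both genotypes and the genotypes overlapped. Its log2 difference of -0.10 became 0.20 without null array 1 and 0.35 without wild-type array 2. Trim59, a membrane-anchored member, showed the same pattern of lots, at 21096 and 27390 units in the null arrays against 22545 and 36154 units in wild type (log2 difference -0.25).

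Of the 4 members with membrane, ARF or MATH domains, Trim13, Trim23, Trim37 and Trim59, none had an unadjusted p under 0.05, though Trim13 did with the lot as a block. Trim13, an endoplasmic reticulum ligase, read 4041 and 4884 units in the null arrays, against 5094 and 6916 units in wild type, without overlap (log2 difference -0.42, limma adjusted p = 0.505). Trim23, which carries an ARF GTPase domain, read 1257 and 1480 units in the null arrays, against 1751 and 1752 units in wild type, also without overlap (log2 difference -0.36, limma adjusted p = 0.450). Trim37, a ligase of centrosomes and peroxisomes, had a log2 difference of 0.002 with opposite signs in the 2 lots. The median of the 4 genes was -0.30.

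The other kept members were Trim41, Trim32, Trim47, Trim16 and Trim68. Trim16, which lacks a RING and acts in the clearance of damaged endomembranes, read 938.8 and 1035 units in the null arrays, against 859.1 and 487.1 units in wild type. The groups did not overlap, but lot 1 gave a log2 difference of 0.13 and lot 2 one of 1.09 (0.61 in the fit, limma adjusted p = 0.481). Trim32, mutated in a limb-girdle muscular dystrophy, had a log2 difference of 0.15, Trim47 one of 0.17 and Trim41 one of -0.01. Trim68 read 409.7 and 805.3 units in the null arrays, against 567.1 and 533.8 units in wild type, with differences of -0.47 and 0.59 in the 2 lots. It was the kept member with the lowest mean signal, 579 units, and Trim36 was the dim member with the highest, 466.5 units.

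The 17 dim members were Trim3, Trim29, Trim30b, Trim31, Trim36, Trim42, Trim44, Trim50, Trim52, Trim54, Trim60, Trim61, Trim62, Trim65, Trim66, Trim67 and Trim69, with mean signals between 132.5 and 466.5 units. Each had at least 1 array within or below the range of the Y-linked probes, and 5 (Trim42, Trim52, Trim54, Trim61 and Trim65) had all 4 arrays there. Their lots disagreed in direction for 10 of the 17, against 7 of the 26 kept members. The median gap between lots was 0.96 on the log2 scale for dim and 0.28 for kept members. In the fit without the filter 0 of all 13840 genes passed limma after adjustment, the 17 among them. Trim65 and Trim69 had an unadjusted p under 0.05 in that fit, where 10.9% of all genes did. Trim69 read 277.9 and 194.5 units in the null arrays, against 429.5 and 491.9 units in wild type, and no fold is given because the null arrays lay within background.

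Genes that work with the TRIM family were examined in 5 lists. Of their 36 kept members 0 passed limma after adjustment, where 0.118% of all kept genes did. Of the TRIM proteins that carry other symbols, Mid1 and Mid2 were dim. Mefv, which encodes the inflammasome sensor pyrin, read 3435 and 2807 units in the null arrays, against 695.4 and 1639 units in wild type. Its log2 difference was 1.54 (SE 0.47, limma adjusted p = 0.253), with 2.30 in lot 1 and 0.78 in lot 2. Partners of Trim28 in chromatin repression gave 0 of 7 genes at an unadjusted p under 0.05 (median 0.10), and 0 of 10 ubiquitin and SUMO enzymes reached it (median 0.01), against 16.5% of all kept genes. With the lot as a block 1 gene of each list reached it, Cbx5, a heterochromatin protein gene (log2 difference -0.40), and Ube2d1, a ubiquitin-conjugating enzyme gene (0.48), where 24.3% of all kept genes did. Mefv did not reach it in that fit.

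Among 11 kept genes of nucleic acid sensing, 1 (9.09%) was higher and 2 (18.2%) were lower at an unadjusted p under 0.05, against 9.65% and 6.83% of all kept genes, so the share higher is that of the background. Ikbke, a kinase that activates interferon regulatory factors, read 5253 and 5548 units in the null arrays, against 2580 and 2072 units in wild type (log2 difference 1.22, SE 0.20, limma adjusted p = 0.106). Both null arrays were above both wild-type arrays. Lower values were found for Tab3, an adaptor of the kinase TAK1 (log2 difference -0.63, limma adjusted p = 0.263), and Ifih1, the RNA sensor MDA5 (-0.61, adjusted p = 0.283). The list's median was -0.03. In the Smad pathway, where Trim33 acts, 6 of 6 kept genes were higher by sign (median 0.39), where 4048 of the 8444 kept genes were. Tgfbr2, a TGF-beta receptor gene, was the 1 at an unadjusted p under 0.05, against 9.65% of all kept genes higher. With the lot as a block there were 3, Tgfbr1 and Smad5 in addition, in a fit where 24.3% of all kept genes reached that level in either direction. Tgfbr2 read 923.1 and 1022 units in the null arrays, against 593.4 and 666.7 units in wild type (log2 difference 0.63, limma adjusted p = 0.235).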

How the data were processed

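Per the labels' protocols, digoxigenin-labelled cRNA was hybridised to 1-colour Applied Biosystems arrays. The deposited probe intensity values are linear and were quantile normalized by the authors, as the values show, since sorted values of the 4 arrays differ by at most 0.286%. How arrays were scanned and background was corrected is not stated in the material used. The platform annotation gave 1 symbol for 14411 of 33012 probes, several for 247 and none for 18354. Signals under the 1st percentile (75.8 units) were raised to it before log2, and genotype was the only term in limma 3.58.1 (R 4.3.3; 2 residual and 2.11 prior degrees of freedom), fitted on all 4 arrays. The fitting step was tested on simulated data. Alternatives were a lot block, other filters, floors and probe choices, cyclic loess, a variance trend and leaving out each array. The labels state that a replicate number is an array lot, so numbers pair the arrays, and same-lot deviations from the genotype means correlated at 0.50. The number of arrays limits precision. Every member is accounted for, and values on each array were given for kept members with an unadjusted p under 0.05 or a 1.5-fold difference in both lots, for the 3 brightest, and for further members chosen after their values were seen. For pathway lists the highest and lowest genes with an unadjusted p under 0.05 were named. Ifih1 and the erythroid markers named beside Trim10 were chosen after their values were seen. The members and lists were chosen with earlier results of these data known. Figures used matplotlib 3.10.9 in Python 3.11.15.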

Additional observations from a re-analysis of the deposited data

How the results depend on the processing

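The count of TRIM genes past an adjusted p of 0.05, 0 in the reported fit, was 2 (Trim10 and Trim45) in each of 2 settings, a test limited to the brightest 25% of probes and a variance trend. It stayed 0 with either other floor, cyclic loess and the mean of kept probes, where 10 to 11 genes of the whole series passed. With no filter and with the lot as a replicate block (smallest limma adjusted p = 0.113), 0 genes of the whole series passed. The TRIM count of 0 in those 2 fits therefore tells nothing of the family. In the reported fit and those with 10 to 11 genes called, so few genes passed that a TRIM count of 0 tells little either. Fits with an array left out hold 1 array in a group, so their calls are not counted here. With the brightest 25% of probes, 17 members were left. The count at an unadjusted p under 0.05 was then 3, against 5 in the reported fit, where 20.6% of all genes in the limited test reached it. Only Trim10 and Trim45 of those 5 were among the 17, so the 3 hold a further member. The count of 1.5-fold differences in both lots was 2, against 4. The count at an unadjusted p under 0.05 was 7 with the replicate block, which adds Trim13 and Trim24. In that fit 24.3% of all kept genes reached that level. Over all kept genes, 10 passed in the reported fit, 0 with the replicate block (where 2055 had an unadjusted p under 0.05), 291 among the brightest 25% and 295 under a variance trend. The median of the TRIM genes lay between 0.01 and 0.09 with an array left out and was -0.07 with the brightest 25% of probes. Of the named genes, Trim11 (-0.10) ranged between -0.54 and 0.35 with an array left out and changed sign, to 0.20 without null array 1 and 0.35 without wild-type array 2; the cause was not tested. Directions of Trim10, Trim17, Trim45, Trim46, Trim30d, Trim28 and Trim8 held with cyclic loess and with each array left out. The other alternatives left their log2 differences unchanged, so they could not test a direction. Trim17, Trim46 and Trim30d were not among the brightest 25% of probes. Signal near background limits Trim17, Trim46 and all dim members.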
